A study of Mus musculus with 6 samples.

Results

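The chromatin described here is that of tumour-infiltrating bone marrow derived macrophages (BMDM), taken as the 3 BMDM libraries among the 6 ATAC-seq libraries of the study. The cells were sorted from brain tumours grown in the mouse brain from the isogenic glioma line SB28, in mice of wild-type (WT) genotype. The gate kept F4/80+ CD11b+ CD45+ cells with low or absent LY6C, no LY6G and high CD49d. The remaining libraries are of microglia, and no comparison with them is made here. The labels do not say whether the BMDM libraries came from separate animals, so the spread between them may be technical. The members are the BMDM columns of the deposited peak table, with 92864 distinct annotated peaks, and the peak lists of the 3 libraries, with 33982, 52631 and 17741 peaks. The peak table covers all 6 libraries, microglia included, and 43.6% of its peaks overlapped no BMDM list. Shares, classes of openness and peaks per gene below refer to this joint set, not to peaks of BMDM alone.

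ATAC-seq marks open chromatin: the Tn5 transposase inserts sequencing adapters where DNA is not wrapped in nucleosomes, mainly at promoters and at distal regulatory sites such as enhancers. Monocytes leave the bone marrow, enter a tumour from the blood and become macrophages there. Their chromatin is shaped by lineage factors such as PU.1 (Spi1), C/EBP, RUNX and IRF proteins, and by factors induced by signals, such as AP-1 and NF-kB. CD49d, the gate's marker, is the integrin alpha 4 chain and is encoded by Itga4, so the state of that gene is no independent finding.

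The libraries differed in depth. Reads in the annotated peaks numbered 7167211 in BMDM 1, 19727511 in BMDM 2 and 4910448 in BMDM 3, and the median peak held 20, 66 and 24 reads. Values below are normalized read counts, that is reads divided by the size factor of the library (0.504, 1.54 and 0.552), given in the order BMDM 1, 2 and 3. The size factors were inferred from the spacing of the low values in each column. Which library is highest or lowest at a peak, or in a class of peaks, rests on these factors. A count of 3 reads, the limit that a count of 0 allows, was 5.95, 1.94 and 5.43 normalized counts. Within the peak lists, the authors' fold enrichment correlated across peaks with the count per kilobase of each column. The BMDM 2 and 3 lists matched their own column best (Spearman correlations of 0.371 and 0.498), whereas the BMDM 1 list gave 0.408 with its own column and 0.420 with that of BMDM 2. A count sums over the sorted cells, so fewer open cells and less openness per cell cannot be told apart.

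The promoters of the 5 genes that mark these cells fell into very different places in the range of openness. The promoter count of a gene sums its peaks up to 3 kb from the start site, and its percentile is its place among the 15422 genes with such a peak. Itga4 had 2065, 1066 and 853 counts (mean 1328 ± 647, SD, n = 3) at the 93.3rd percentile. F10, which encodes coagulation factor X, had 762, 794 and 384 counts (72.7th percentile). Clec4e, whose lectin senses mycobacterial glycolipids and dying cells, had 490, 517 and 216 counts (56.5th percentile). All 3 had their lowest normalized count in BMDM 3, and the Clec4e promoter peak was in 2 of the 3 peak lists. Set against promoters of like summed count, as described further below, Itga4 was instead lowest in BMDM 2 (log2 deviation -0.46, against 0.05 in BMDM 3). F10 and Clec4e remained lowest in BMDM 3 (-0.26 and -0.57). Ccr2, the chemokine receptor that brings monocytes out of the marrow, had 73.4, 104 and 74.3 counts (23.5th percentile). Ly6c2, which encodes the LY6C antigen that the gate required to be low or absent, had 33.7, 94.5 and 39.9 counts (17.5th percentile). Both were highest in BMDM 2 and low among all promoters. Ly6c2 has close relatives in the genome, so its reads are uncertain.

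The DNA just before the start site is shown for 4 of these genes and for 4 of the most open promoters of the libraries, to set the markers beside promoters with the highest counts. The choice among the most open promoters was made after their sequences were seen and includes the 2 with most CG dinucleotides. Each stretch is the 120 bases before the start site given by RefSeq (build GRCm38.p6, the assembly named mm10 in the files), 5′ to 3′ on the gene's strand, and lies under a promoter peak of the gene. Capitals mark letters of any motif searched, on either strand: GGAAGT (the core bound by PU.1), TGTGGT (RUNX), TTGCNNAA (C/EBP), TGANTCA (AP-1), TGACGTCA (CRE), GAAA followed after 2 bases by GAAA (interferon response), CCAAT (NF-Y), CCGGAAG (ETS) and GGGCGG (the GC box of SP and KLF factors). Where motifs overlap, their capitals run together.
Itga4, chr2:79255306-79255425, plus strand: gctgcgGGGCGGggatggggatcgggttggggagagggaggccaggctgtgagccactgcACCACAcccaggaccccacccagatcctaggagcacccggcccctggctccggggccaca
F10, chr8:13037188-13037307, plus strand: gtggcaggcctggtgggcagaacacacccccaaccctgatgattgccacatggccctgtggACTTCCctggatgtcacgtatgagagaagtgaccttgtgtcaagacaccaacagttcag
Clec4e, chr6:123289872-123289991, minus strand: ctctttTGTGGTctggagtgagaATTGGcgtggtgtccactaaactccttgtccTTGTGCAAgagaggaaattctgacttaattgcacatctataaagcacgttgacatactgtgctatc
Ly6c2, chr15:75111972-75112091, minus strand: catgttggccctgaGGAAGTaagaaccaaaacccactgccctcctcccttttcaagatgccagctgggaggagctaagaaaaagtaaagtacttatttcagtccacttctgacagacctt
Mnt, chr11:74830804-74830923, plus strand: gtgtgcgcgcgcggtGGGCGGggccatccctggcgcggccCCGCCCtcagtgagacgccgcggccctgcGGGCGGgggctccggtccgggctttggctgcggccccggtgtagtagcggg
Sp1, chr15:102406196-102406315, plus strand: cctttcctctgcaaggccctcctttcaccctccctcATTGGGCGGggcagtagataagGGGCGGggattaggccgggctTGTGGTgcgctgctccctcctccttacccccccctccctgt
Sin3a, chr9:57076256-57076375, plus strand: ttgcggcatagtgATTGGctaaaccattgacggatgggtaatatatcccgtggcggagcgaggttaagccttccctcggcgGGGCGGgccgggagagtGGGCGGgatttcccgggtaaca
Pim1, chr17:29490665-29490784, plus strand: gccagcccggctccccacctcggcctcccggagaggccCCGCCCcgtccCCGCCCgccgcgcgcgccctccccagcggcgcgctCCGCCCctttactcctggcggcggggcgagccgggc
The Clec4e stretch held 1 match each of TGTGGT, TTGCNNAA and CCAAT, and those of F10 and Ly6c2 held 1 match each of GGAAGT. Itga4 held 1 match of TGTGGT and 1 of GGGCGG. Mnt and Pim1 held 3 matches of GGGCGG each, and Sp1 and Sin3a held 2 each. Sp1 also held 1 match of TGTGGT and 1 of CCAAT, and Sin3a 1 of CCAAT. Over the same stretch of all 32851 RefSeq start sites, GGGCGG was present in 26.5%, CCAAT in 21.3%, GGAAGT in 11.6%, TGTGGT in 6.72% and TTGCNNAA in 4.15%. CG dinucleotides numbered 0 in Ly6c2, 1 in F10, 2 in Clec4e and 5 in Itga4, against 4 in Sp1, 11 in Sin3a, 18 in Mnt and 19 in Pim1, and the median over all RefSeq stretches was 3. The stretches of Itga4 and Sp1 overlap in composition, with 72.5% and 65.0% G and C, and among the most open promoters Cdca3 had 3 CG dinucleotides. Among the 15 most open promoters, 13 had a RefSeq stretch under a promoter peak, with a median of 11 CG dinucleotides, and 10 of the 13 held GGGCGG. The 32851 stretches are not limited to start sites under a promoter peak, so these values do not show a trait of the most open promoters. A match of letters is a description and does not show that a factor was bound.

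The most open promoter was that of Mnt, a MAX-binding repressor that opposes MYC (chr11:74829814-74833026, over the start site), with 7189, 4310 and 2808 counts (mean 4769 ± 2226, SD, n = 3). Zfp36 encodes tristetraprolin, which destroys the mRNAs of inflammatory cytokines. Its peak at chr7:28380948-28383543, by the deposited annotation 695 bases upstream of a start site, had 6596, 4492 and 2716 counts. That peak does not cover the start site that RefSeq gives for Zfp36, which lies under another peak. Its neighbour Plekhg2 had 6368, 3804 and 2745 counts over its own start site. Sp1, whose protein binds GC boxes, had 6903, 3300 and 2458 counts in a peak of 1905 bases (chr15:102405077-102406981). By normalized count BMDM 1 was highest and BMDM 3 lowest at each of the 15, an order that rests on the size factors.

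Other transcriptional regulators among the 15 were the Kruppel-like factors Klf13 (mean 3629 ± 1613 counts) and Klf10 (3169 ± 1313), and the repressor genes Skil (3592 ± 1588), which curbs SMAD signalling, and Cic (3515 ± 1960), which is switched off by growth factor signalling. Sin3a, the scaffold of a histone deacetylase complex, had 3317 ± 1663 counts, and Brd2, a bromodomain reader of acetylated histones, had 3111 ± 1186. The signalling genes were Pim1, a kinase induced by cytokines (3103 ± 1237), Crlf2, a chain of the receptor for thymic stromal lymphopoietin (3103 ± 1263), and Srgap2, which acts on the actin skeleton (3284 ± 1705). Cdca3 of the cell division cycle (3173 ± 1583) and the splicing factor gene Sf1 (3138 ± 1717) completed the set. The promoter just outside it was that of Gsk3b, with a mean of 3035, against 3103 for Crlf2 just inside. Some of these peaks serve more than one gene: that of Srgap2 also covers the RefSeq start of Fam72a, and that of Brd2 the start of H2-DMa.

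**Figure D1:**
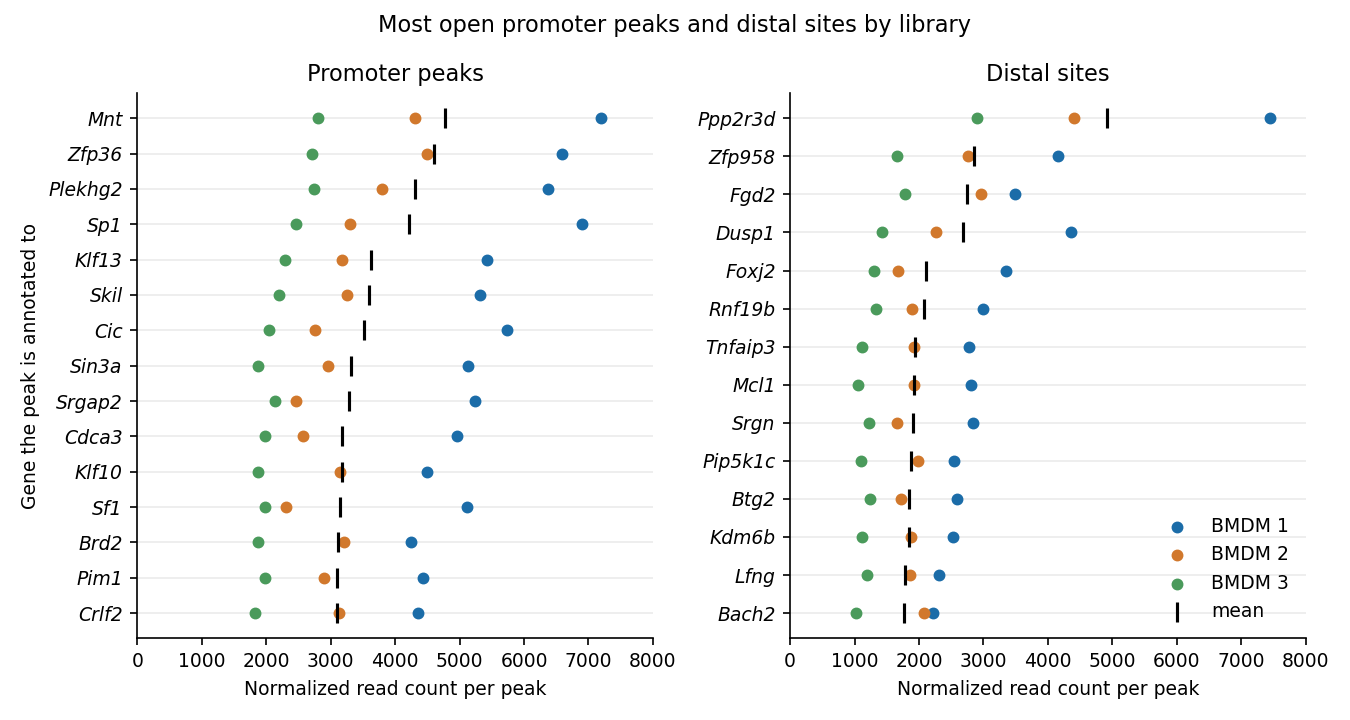
Normalized read counts (horizontal axis) of the 15 most open promoter peaks (left) and 14 of the 15 most open distal sites (right), by the gene each peak is annotated to. Points are single libraries and the black tick is their mean. In every row BMDM 1 is highest and BMDM 3 lowest, from 7189 to 2808 at the Mnt promoter and from 2210 to 1015 at the Bach2 site. This order rests on the size factors of the libraries.

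Large counts came partly from wide peaks. Per kilobase of peak, 4 of the 15 promoters stayed among the first 15, and these were Cic with 2290 counts per kilobase, Sp1 with 2215, Sf1 with 1816 and Zfp36 with 1772. Brd2, in a peak of 3909 bases, had 796 counts per kilobase. Over all 13109 gene promoters ranked, the median was 264 counts per kilobase. A peak on an unplaced contig, annotated to Pisd-ps3, had more reads than any named promoter, with 13200, 9557 and 7491 counts, and the host gene of a microRNA, Mir22hg, had 6044, 3516 and 2326. Both were outside the naming rule.

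The most open sites more than 3 kb from a start site included some near genes that end inflammatory or stress signals. The first was annotated to Ppp2r3d, a phosphatase subunit gene, 50885 bases from its start site, with 7443, 4400 and 2893 counts (chr9:124422534-124426013). That site covers start sites that RefSeq gives for other transcripts, and 2 of the 15 sites did so. Over all 56910 distal sites the share was 1.34%, and it was 11 of the 100 most open. The site annotated to Dusp1, a phosphatase that shuts off MAP kinases, lay 3583 bases downstream of the start site and had 4354, 2261 and 1426 counts. A site 45987 bases upstream of Tnfaip3, which encodes the NF-kB inhibitor A20, had 2779, 1924 and 1118 counts, and it too covers a RefSeq start, of a predicted gene. By normalized count BMDM 1 was highest and BMDM 3 lowest at each of the 15 sites, which again rests on the size factors.

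Other sites lay near genes of cell survival, proliferation and differentiation. A site 5822 bases upstream of Mcl1, an anti-apoptotic BCL2 relative, had a mean of 1925 ± 872 counts (SD, n = 3). Another 13618 bases upstream of Btg2, which slows proliferation, had 1849 ± 681. In an intron of Bach2, a repressor best known in B and T cells, a site had 1770 ± 657. The site 16922 bases from the start of Fgd2, an exchange factor for CDC42 made in macrophages, had 2743 ± 867, and that 3847 bases upstream of Kdm6b, a histone H3 lysine 27 demethylase induced in macrophages, had 1840 ± 708. Srgn encodes serglycin, the proteoglycan of leukocyte granules. A site of 1222 bases in an intron, 15577 bases upstream of its start site (chr10:62543028-62544249), had 2835, 1656 and 1217 counts and was the first of all distal sites per kilobase, with 1557 counts per kilobase against a median of 69.5 over all distal sites. Among the remaining sites were those annotated to Zfp958, Foxj2, Rnf19b, Pip5k1c and Lfng, with means from 1787 at Lfng to 2858 at Zfp958. The site just outside the 15 was at Fosb, with a mean of 1745, against 1770 at Bach2.

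Sites annotated to microRNA genes were left out of that ranking, yet some were as open. A site 6499 bases upstream of Mir142, a microRNA gene of blood cells, had 3059, 1691 and 1265 counts (chr11:87748579-87750365). Upstream of Mir23a, sites at 9573 and 3720 bases had means of 2139 ± 934 and 1865 ± 813 counts. All 3 of these sites were in the peak list of each library, and BMDM 1 was again highest. These sites were chosen after their values were seen. The mature products of the genes, as RefSeq gives them, are shown with the seed (bases 2 to 8) in capitals, since the seed selects the target mRNAs.
mmu-miR-142a-5p, chr11:87756867-87756887, plus strand: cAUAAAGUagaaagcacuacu
mmu-miR-142a-3p, chr11:87756903-87756925, plus strand: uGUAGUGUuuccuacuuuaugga
mmu-miR-23a-5p, chr8:84208527-84208548, plus strand: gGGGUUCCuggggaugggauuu
mmu-miR-23a-3p, chr8:84208563-84208583, plus strand: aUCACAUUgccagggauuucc
The 4 seeds are all different.

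Promoters held most of the reads although they were a minority of the peaks. Peaks within 3 kb of a start site were 30.0% of the peaks and 40.0% of the bases in peaks, and they held 65.4%, 62.0% and 59.0% of the reads in BMDM 1, 2 and 3 (mean 62.1% ± 3.22, SD, n = 3). The 95% Wilson interval of these shares reached 0.0435 percentage points to either side at most, which covers counting error only. Peaks within 1 kb alone held 59.6%, 55.8% and 52.5%. Introns had 32.7% of the peaks and 15%, 16.1% and 17.8% of the reads. Distal intergenic peaks were 29.2% of the peaks and held 14.5%, 16.6% and 17.4% of the reads (mean 16.1% ± 1.52). BMDM 1 thus had the largest share within 1 kb and BMDM 3 the smallest. From 1 to 2 kb the shares were 3.27%, 3.47% and 3.62%, in the same order as in introns and distal peaks.

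**Figure D2:**
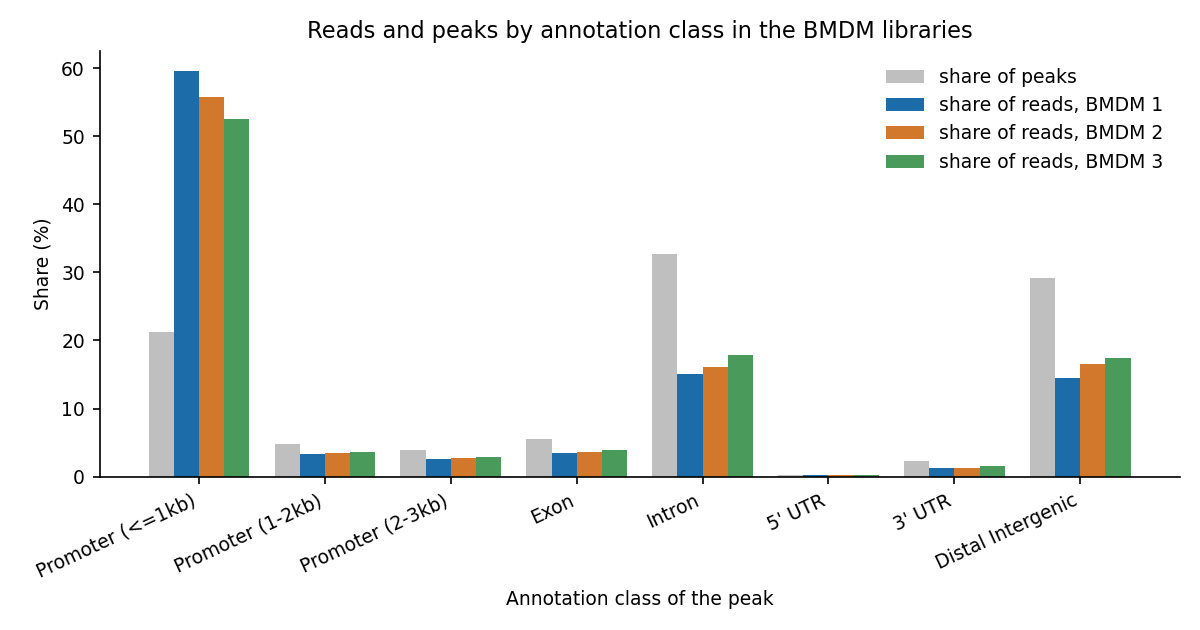
Share of peaks (grey bars) and share of reads in each library (coloured bars) in percent, by annotation class of the peak. Peaks within 1 kb of a start site are 21.2% of the peaks and hold 59.6%, 55.8% and 52.5% of the reads in BMDM 1, 2 and 3, while introns and distal intergenic peaks hold a smaller share of reads than of peaks.

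Promoter peaks were also wider: the median promoter peak within 1 kb was 1071 bases wide, the median of all peaks 593 bases. Per kilobase, the median promoter peak within 1 kb had 197, 202 and 141 counts, and the median distal intergenic peak had 58.6, 70.2 and 70.6. BMDM 3 was lowest at the promoters and BMDM 1 at the distal peaks. First introns, which lie near the promoter, had 72.5, 74.8 and 74.3 counts per kilobase, and later introns 59.8, 64.3 and 69.5. Of all reads, 18.9% ± 1.68 lay between 10 and 50 kb from a start site, a span with 34.8% of the peaks.

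Reads were concentrated in few peaks. The most open 1% of peaks held 16%, 12% and 11.2% of the reads, and the most open 10% held 61.3%, 55.7% and 49.2%. Of those 10% of peaks 80.0% were promoter peaks, against 13.9% of the least open 10%. The ranking used the same libraries, so these shares describe the table and carry no test.

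The 3 libraries correlated most closely at promoters. Across all 92864 peaks, Pearson's r of log2(count + 1) was 0.937 between BMDM 1 and 2, 0.906 between BMDM 1 and 3 and 0.919 between BMDM 2 and 3. Promoter peaks within 1 kb gave 0.972, 0.962 and 0.965, and distal intergenic peaks 0.908, 0.848 and 0.866. Peaks of a library share its depth and its base composition and are not independent, so no p is given. The pair BMDM 1 and 2 had the highest r in each class. Levels gave another picture. Within 1 kb the median log2 ratio was 0.52 for BMDM 1 to 3 and 0.48 for BMDM 2 to 3, against -0.18 and 0.006 at distal intergenic peaks. For BMDM 1 to 2 it was 0.06 within 1 kb and -0.22 at distal intergenic peaks.

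The differences between libraries followed the openness of the peak. In the least open 10% of peaks the median log2 ratio of BMDM 1 to BMDM 3 was -1.32, and in the most open 10% it was 0.94. Between BMDM 2 and BMDM 3 it went from -0.94 to 0.70. Between BMDM 1 and BMDM 2 it stayed between -0.44 and 0.20. Of the least open 10% of peaks 98.9% overlapped no BMDM list, and of the most open 10% 96.4% were in all 3 lists. By these ratios BMDM 3 had relatively more reads in weak peaks of the joint set and fewer in strong ones. It was also the library with the fewest reads and the shortest list, and the part of depth in this was not tested.

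**Figure D3:**
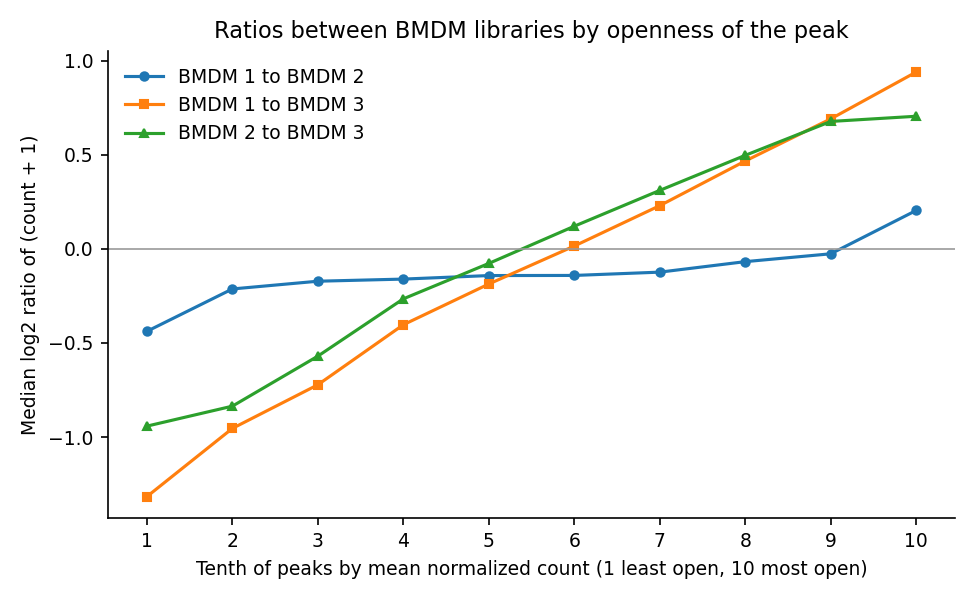
Median log2 ratio of (count + 1) between each pair of BMDM libraries (vertical axis) in 10 classes of equal size by mean normalized count. Both ratios to BMDM 3 climb from below 0 in the least open class to above 0 in the most open, from -1.32 to 0.94 for BMDM 1, while BMDM 1 and BMDM 2 stay closer. In the least open class 98.9% of the peaks overlap no BMDM list.

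The peak lists, called by the authors on each library separately, were nested. At least 1 base of overlap with peaks of both other lists was found for 49.5% of BMDM 1 peaks, 31.7% of BMDM 2 peaks and 96.3% of BMDM 3 peaks. Peaks in no other list were 5.50%, 39.3% and 0.721%. The lists covered 19.9, 33.5 and 9.70 Mb. Of the BMDM 1 peaks 94.4% overlapped a BMDM 2 peak, and of the BMDM 2 peaks 59.9% a BMDM 1 peak. Where at least 50% of both peaks overlapped, a rule that itself limits the distance, summits lay a median of 39 to 47 bases apart. In BMDM 1, 3.62% of the weakest 10% of peaks by the authors' −log10 q were in both other lists, and 100% of the strongest 10%.

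Of the table's peaks 17.3% overlapped a peak in all 3 BMDM lists, and those 16097 peaks held 71.9%, 67.7% and 60.4% of the reads. Promoter peaks within 1 kb did so in 49.3%, introns in 7.92% and distal intergenic peaks in 8.96%. No BMDM list called a peak at 40447 (43.6%) of the table's peaks. The peaks with the highest fold enrichment in the lists, by contrast, were outside the table: none of the first 10 of any library overlapped a table peak, and 6 of the 10 were shared by all 3 libraries. The first in BMDM 1 was at chr6:103649055-103649285, with a fold enrichment of 33.0, the authors' value.

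Genes with many peaks were long, and they included regulators of blood cell development and of the actin skeleton. Over 16051 genes the median was 3 peaks within 100 kb of the start site. Etv6, an ETS repressor needed in blood stem cells, had 69 peaks, of which 48 were intronic and 41 were in at least 1 BMDM list. Foxp1, a forkhead repressor active in blood cells, had 66, and Runx1, a core factor of blood development, had 51. The RAC regulators Elmo1, Trio and Prex1, which act in phagocytosis and migration, had 62, 57 and 56. Of the remaining 9, Asap1 had 65 and Frmd4a 64, Bach2, Gse1 and Tmcc3 had 53 each, Chd7 had 51, and Akap13, Rptor and Septin9 had 49 each. The genes spanned from 119 kb (Tmcc3) to 592 kb (Foxp1), and the part of gene length in the count was not tested. The counts are of table peaks, many of which were in no BMDM list: peaks in at least 1 list numbered 51 for Foxp1, 37 for Prex1, 36 for Asap1, 30 for Runx1, 28 for Elmo1, 24 for Frmd4a and 23 each for Trio and Septin9.

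Counting only peaks found in all 3 lists gave another order, with 5 of the 15 genes in common. Chd7, a chromatin remodeller, came first with 14, then Runx3, a factor of myeloid and T cell differentiation, with 13, Foxp1 with 12, and Bach2 and Etv6 with 11 each. Short genes now entered. Fos, the AP-1 subunit induced within minutes of a signal, is 3.38 kb long and had 10 such peaks, 20 of its 25 peaks being distal. Tnfaip3, 11.1 kb long, had 9 such peaks among 26, and Irf2bp2 had 9 among 30. Cd44, the hyaluronan receptor, and Irak2, a kinase downstream of Toll-like receptors, had 10 each. Summed over its peaks Fos had 12436, 9709 and 5562 counts, again highest in BMDM 1.

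Within the Itga4 locus, 15 peaks were annotated, of which 10 were distal intergenic and 4 intronic. After the promoter (chr2:79254666-79256188) the most open was a distal site 122689 bases upstream, at chr2:79131909-79132737, with 670, 363 and 250 counts. That site and the promoter were the 2 peaks of the locus in all 3 lists, and BMDM 1 was highest at both. Ccr2 had 7 peaks, of which 1, lying 33039 bases upstream with 97.2, 181 and 85.1 counts, was in all 3 lists, while its promoter was not. The 4 peaks of Ly6c2 were each in 1 list.

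Genes of the myeloid transcription factor list had the most open promoters of the lists examined. A promoter peak in all 3 lists was found for 30 of the 31 genes, against 60.7% of all genes with a promoter peak, and 27 were in the upper 25% of promoter counts, a share fixed at 25% over all genes. The median percentile was 95.3. Lists share some members, as Siglech is in both the microglial and the dendritic cell list. The AP-1 genes led: Junb had 8681, 5148 and 3761 counts, Jun 5273, 3282 and 2125, and Fos 4953, 2940 and 1906. Each was highest in BMDM 1 and lowest in BMDM 3 by normalized count. Spi1, which encodes PU.1, had 2378, 1393 and 1207 counts (96.3rd percentile), Runx1 2174, 2490 and 1409, and Cebpb, a C/EBP factor of emergency myelopoiesis, 1571, 1387 and 933. Hif1a, the hypoxia-inducible factor, had 1508, 1122 and 815 counts (90th percentile). Lower down were Runx2 (65.2nd percentile) and Batf3 (58.6th), the dendritic cell factor.

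**Figure D4:**
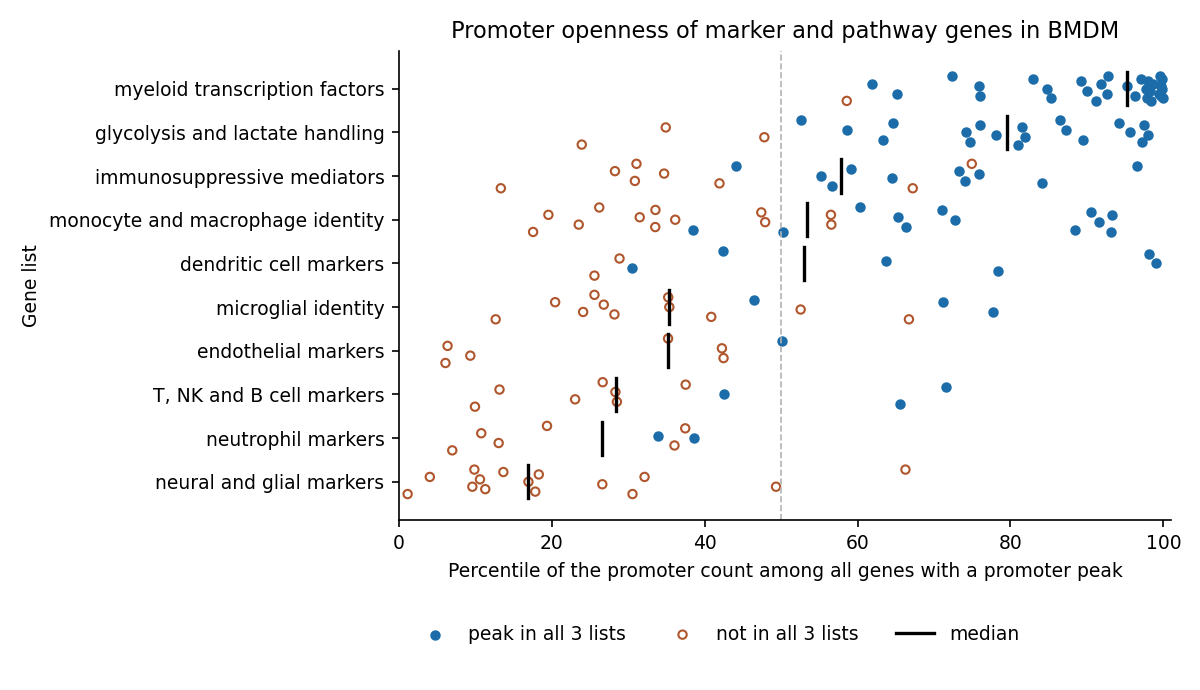
Percentile of each gene's promoter count (horizontal axis, mean of the 3 libraries, among 15422 genes) for 10 gene lists; filled points have a promoter peak in all 3 BMDM lists, open points do not, and the black bar is the list's median. Myeloid transcription factors have a median of 95.3 and neural and glial markers one of 16.9.

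Genes of monocyte and macrophage identity were spread from the 17.5th to the 93.3rd percentile. Of 24 with a promoter peak 12 had one in all 3 lists (60.7% over all genes) and 5 were in the upper 25%, shares near those of all genes, with a median percentile of 53.4. The 5 were Itga4, Vim (93.2nd), which encodes an intermediate filament, Csf1r (91.6th), the receptor that macrophages need to survive, Cd68 (90.5th), a lysosomal glycoprotein, and Lgals3 (88.4th), which encodes galectin 3. Cd68 had 1613, 1116 and 786 counts and Csf1r 1518, 1353 and 824. Lower down were Adgre1 (47.4th), which encodes the gated antigen F4/80, Lyz2 (33.5th), the lysozyme of myeloid cells, Mrc1 (31.5th), which encodes the mannose receptor, and Hp (19.5th). Lyz2 had 181, 203 and 85.1 counts. A marker gene of these cells could thus have a promoter count below that of most genes.

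Promoters of glycolysis and lactate handling, the subject of the series title, ranged from the 23.9th to the 98.1st percentile. Of 22 with a promoter peak 19 had one in all 3 lists, against 60.7% of all genes, and 13 were in the upper 25%, with a median percentile of 79.6. Pfkfb3, which makes the activator of phosphofructokinase, had 2656, 2209 and 1250 counts (98.1st percentile). Aldoa had 2874, 1542 and 1207, Pkm, the pyruvate kinase, 2107, 2314 and 1089, and Gapdh 2123, 1542 and 1029. Of these Pkm alone was highest in BMDM 2. Slc2a1, the glucose transporter GLUT1, had 1365, 983 and 726 counts (87.3rd), the lactate exporter Slc16a3 1087, 789 and 629 (81.0th) and Ldha, which makes lactate from pyruvate, 885, 809 and 589 (78.1st). Ldhb, which favours the reverse reaction, had 155, 203 and 149 (34.9th), and the muscle isoform Pfkm was at the 23.9th percentile. These genes and Hk1 (47.8th) were the members without a promoter peak in all 3 lists.

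Immunosuppressive mediators were mixed. Of 18 genes 10 had a promoter peak in all 3 lists (60.7% over all genes) and 3 were in the upper 25%, shares near those of all genes, with a median percentile of 57.9. Those 3 were Tgfb1, with 1982, 1881 and 1223 counts (96.5th percentile), Vsir, which encodes the checkpoint ligand VISTA (84.1st), and Vegfa, the angiogenic factor (75.8th). Il10, an anti-inflammatory cytokine gene, had 803, 868 and 395 counts (74.9th) and Cd274, which encodes PD-L1, 714, 833 and 473 (74.1st). Arg1, the cytosolic arginase of suppressive macrophages, had 183, 109 and 109 (30.9th), below Arg2, its mitochondrial counterpart, with 442, 578 and 308 (59.1st). Cd163, a scavenger receptor, had 23.8, 36.3 and 61.6 counts (13.3rd percentile). Arg1 was highest in BMDM 1 and Cd163 in BMDM 3.

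Markers of other cell types had mostly low promoter counts, with exceptions. Neural and glial markers had 0 of 15 in all 3 lists, a median percentile of 16.9 and summed counts of 1591, 1512 and 1697. Gad1 of inhibitory neurons had 3.97 counts in BMDM 1, below the limit of 5.95, and 10.4 and 12.7 in the others. Neutrophil markers had 2 of 8 (median 26.6), T, NK and B cell markers 3 of 10 (28.4), endothelial markers 1 of 7 (35.2) and microglial markers 3 of 14 (35.3). Over all genes with a promoter peak the share in all 3 lists was 60.7%. Within those lists Lck (71.5th percentile) and Cd3d (65.5th) of T cells, P2ry12 (71.2nd) and Mef2c (77.7th) of microglia and Mbp of oligodendrocytes (66.3rd) were higher. Counts of P2ry12, Mef2c and Mbp sum over 9, 8 and 6 promoter peaks, and per kilobase these genes were at the 35.5th, 34.7th and 36.1st percentile. Genes of other lists moved as well: per kilobase Spi1 was at the 75.1st percentile, Csf1r at the 71.9th and Ldha at the 49.9th, while Cd3d rose to the 84.9th. Median percentiles per kilobase were 86.0 for myeloid transcription factors, 77.8 for glycolysis genes, 47.5 for monocyte and macrophage identity and 31.4 for microglial markers. Dendritic cell markers had 6 of 8 in all 3 lists (60.7% over all genes) and a median percentile of 53.0, near the middle of all genes. Among the 6 were the MHC class II genes H2-Ab1 (99.0th) and Cd74 (98.1st), which macrophages also express. The part of other cells in the BMDM counts was not tested.

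Some promoters differed between the libraries far more than the rest. Over the 9824 promoter peaks with a mean count of at least 100, the ratio of the highest to the lowest library had a median of 1.83 and a 95th percentile of 2.42. G0s2, which encodes an inhibitor of fat breakdown, had the largest ratio, 4.78, with 304, 63.5 and 154 counts from 153, 98 and 85 reads. Slco4c1, an organic anion transporter, had 212, 53.1 and 154 (ratio 4.00). BMDM 2 was lowest in both, although it was the deepest library. Htra1, a secreted protease gene, had 254, 300.4 and 83.3 counts (3.61), and H1f8, a linker histone gene, had 157, 141 and 43.5 (3.60), both lowest in BMDM 3.

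Because ratios between libraries followed openness, each promoter was also set against promoters of like openness. The log2 count in a library was taken less the mean log2 count of the other libraries, and from this the running median over the 500 promoters nearest in mean count was subtracted, so that 50% to 50.1% of promoter peaks lay above 0 in each library. Deviations ran from -0.38 to 0.41 in BMDM 1, -0.42 to 0.37 in BMDM 2 and -0.34 to 0.34 in BMDM 3 (5th and 95th percentiles). In BMDM 1 the first was Cxcl3, a chemokine that attracts neutrophils, with 210, 58.9 and 72.5 counts, 1.63 above the others, and the second was G0s2, 1.46 above. Olr1, the receptor for oxidized LDL, was 1.29 above, Ccl6, a myeloid chemokine, 1.26, the lipase gene Pnpla7 1.22 and Alox5, the lipoxygenase that starts leukotriene synthesis, 1.18. Bcl2a1a was 1.34 above but has near-identical copies, so its reads are uncertain.

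In BMDM 2 the first promoter by this measure was that of Ifi205, an interferon-induced gene of the IFI200 family, with 143, 318 and 96.0 counts, 1.13 above the other libraries. Plcb1, a phospholipase C gene, followed with 1.09 and Mcf2l with 1.06. Mndal of the same family was 0.92 above, the antiviral GTPase gene Mx1 0.94, and the guanylate-binding protein gene Gbp8 0.97. Ifi205, Mndal and Gbp8 have close relatives, and reads of such copies are uncertain. In BMDM 3 the first were Mgll, which encodes monoacylglycerol lipase, with 194, 62.2 and 199 counts (1.25 above), the collagen gene Col11a2 (1.01), Enah, an actin regulator (1.00), and Dach1 (0.99). At Mgll the low value was that of BMDM 2, with BMDM 1 and 3 alike. Dach1, with 258, 104 and 232 counts, and Col11a2, with 202, 118 and 226, were also lowest in BMDM 2, and Dach1 was highest in BMDM 1. Enah, with 83.3, 91.3 and 152 counts, was highest in BMDM 3 and lowest in BMDM 1.

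A list of interferon-stimulated genes, chosen after those values were seen, set BMDM 2 apart. For gene lists the deviation was taken on a gene's summed promoter count, which is another scale than that of single peaks. In BMDM 1, Cxcl3 was 1.63 above the others as a peak and 1.74 as a gene. The share of all genes above 0 on the gene scale is not reported here. All 18 genes with a summed promoter count of at least 100 lay above 0 in BMDM 2, 1 did in BMDM 1 and 7 in BMDM 3, with medians of 0.49, -0.30 and -0.15. The promoter of Mx1 had 135, 304 and 121 counts, that of Oas3, an activator of RNase L, 450.3, 870 and 397, and that of Ifit2, which binds foreign RNA, 335, 596 and 281. Ccl5, a chemokine for T cells, had 325, 577 and 245. These promoters were highest in BMDM 2, while Irf7, the factor that amplifies type I interferon, had 1502, 1447 and 873 and Stat2, a subunit of the interferon-activated complex, 853, 782 and 496. As the list was chosen for its pattern, the count is a description. Other lists were in part above 0 in BMDM 2 as well: dendritic cell markers in 6 of 7 genes (median 0.13), immunosuppressive mediators in 13 of 17 (0.14) and monocyte identity in 13 of 20 (0.15). Of the markers of T, NK and B cells 6 of 7 were above 0 in BMDM 2 and 1 of 7 in BMDM 1, and their summed counts were 1972, 2562 and 1674. The part of these cells in the result was not tested.

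**Figure D5:**
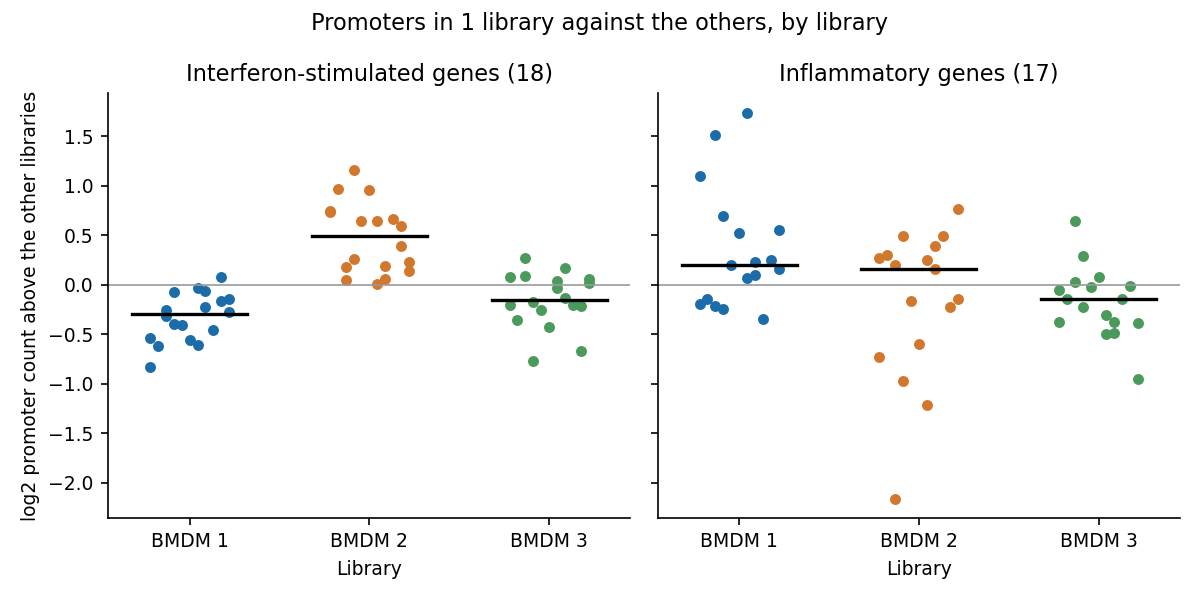
Summed promoter log2 count of a gene in 1 library less the mean of the others, relative to genes of like summed count (vertical axis). Shown are interferon-stimulated genes (left, 18 genes) and inflammatory genes (right, 17 genes). Points are genes and bars are medians: the interferon medians are -0.30, 0.49 and -0.15 in BMDM 1, 2 and 3, and the inflammatory ones 0.20, 0.16 and -0.15.

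A list of inflammatory genes, also chosen after values were seen, was uneven between the libraries. Of 18 genes 12 had a promoter peak in all 3 lists (60.7% over all genes) and 10 were in the upper 25%, with a median percentile of 86.2. Nfkbia, which encodes the NF-kB inhibitor that NF-kB itself induces, had 7510, 4202 and 3002 counts. Tnf had 2252, 1806 and 897, Il1b 1075, 1104 and 571, and Nlrp3, an inflammasome sensor, 2023, 1735 and 741. Above promoters of like summed count in BMDM 1 were 12 of 17 genes (median 0.20), led by Cxcl3 and G0s2. These genes, Bcl2a1a and Olr1 entered the list because they were high in BMDM 1, so that count is a description. The other 5 lay below, among them Il6 (-0.35) and Ccl4 (-0.25).

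Lists of other cell types also shifted with the library. Neural and glial markers lay above 0 in BMDM 3 in 5 of 5 genes that could be placed (median 0.37), and microglial markers in 9 of 10 (0.24). A gene with several weak peaks was matched here by its summed count and not by openness per peak. Slc1a3, with 3 peaks, was at the 30.5th percentile by sum and the 6.03rd per kilobase. With 1 peak each, Tmem119 (0.34) and Cx3cr1 (0.20) were above 0 in BMDM 3, while Crybb1 was at -0.94. The part of peak number in these shifts was not tested. Myeloid transcription factors lay within 0.09 of 0 in each library by their medians (-0.09, 0.04 and 0.02), and glycolysis genes within 0.05 (0.02, -0.05 and 0.05). Single members of these lists lay on both sides of 0.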

How the data were processed

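Open chromatin of 3 BMDM libraries was described without any test. The submitters' processing notes name build mm10, with DESeq2 1.36.0 and ChIPseeker 1.32.1, peak calls by MACS2 2.1.1.20160309, alignment by Bowtie2 2.4.1 and trimming by cutadapt 1.8.1. Whether reads were shifted for the transposase, or duplicates removed, is not given in the sources used here. In all, the authors deposited 1 peak table, whose library columns hold variance-stabilized log2 values and whose mean column is a normalized signal. The deposited peak lists give a fold enrichment over local background, a −log10 p and q, and a peak score, which are the authors' values.

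Of 93084 lines 155 repeated a peak and 65 distinct peaks had no annotation, which left 92864. The stabilization was inverted (Python 3.11.15, numpy 2.4.6, pandas 2.3.3). The mean of the inverted values matched the authors' column to a relative difference of 2.37e-06. The size factor of each library was inferred from the spacing of its low inverted values. After multiplication with the size factors, 99.9989% of BMDM 2 values and 100% of BMDM 1 and 3 values were whole reads within 0.02. The step was tested on simulated data. A further 8 value columns fit no label of the series and stayed unused.

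Peak lists were overlapped with bedtools 2.31.1 (at least 1 base). Logs used a pseudocount of 1, with no filter on low counts. Named are the 15 most open promoter peaks within 1 kb of a start (1 per gene) and the 15 most open distal sites, by mean count, the 15 genes with most peaks within 100 kb, the 5 promoters of mean count at least 100 with the largest ratio between libraries, and list members. Rik, Gm and microRNA names and peaks on unplaced contigs, chromosome Y and the mitochondrial genome were left out of the rankings. A few genes chosen this way are not reported here. Members and lists were chosen with earlier results of these data known. The lists of interferon-stimulated and inflammatory genes and the adjustment for openness were added after values were seen. RefSeq gave a stretch under an own promoter peak for 9884 of 15422 genes (64.1%), so a check of base composition over all promoters with a peak is void and none is reported. The CG and motif values given beside all RefSeq stretches are a description only.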

Additional observations from a re-analysis of the deposited data

How the results depend on the processing

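For the 9 results, 46 of 60 alternative settings moved the value by less than the spread between libraries or left a count within 1.5 times. Some of the 46 were bound to do so, and the count is no measure of robustness. Leaving out 1 library shifts a mean of 3 by less than their SD. The number of annotated peaks per gene depends on no single library, and a filter at a mean count of 10 cannot reach the most open peaks. The median correlation between libraries was 0.919. It was 0.941 with counts scaled to the reads in peaks (CPM), 0.938 with a pseudocount of 10 and 0.898 as a Spearman correlation, and ran from 0.906 to 0.937 when each library was left out. BMDM 1 peaks found in every list numbered 16812, and single pairs of lists gave 16850 to 32075 peaks, the latter without BMDM 3. The promoter share of reads, 62.1%, was 56.0% for the class within 1 kb and 78.0% in peaks found in every list. The distal intergenic share, 16.1%, was 24.8% for all peaks more than 10 kb from a start site and 9.80% in peaks found in every list. Per kilobase, 4 of the 15 named promoters and 6 of the 15 distal sites stayed among the first 15, and beyond 10 kb 7 of the distal sites did. By peaks found in every list 5 of the 15 genes with most peaks stayed. Of the 5 monocyte and macrophage genes in the upper 25%, 3 were counted there with promoters within 1 kb. The cause of these shifts was not tested beyond what each setting itself changes. The settings using peaks found in every list for the read shares were chosen after seeing the data. No paired analysis was possible because the results come from no test. The median peak held 20 reads in BMDM 1 and 24 in BMDM 3, which limits the precision of weak peaks there, and PCR reads are not independent molecules.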
